A study of Mus musculus with 9 samples.

Results

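The genes described here are 38 genes of mitosis and of the G2/M transition in mouse thyroid, taken by gene symbol. No measured value enters the choice of rows, but the list was chosen with earlier results of these data known. The list runs from the cyclins and kinases that start mitosis to the motors and scaffolds that end it. All 38 symbols were found among the 33924 named genes of a raw count table, and all 38 passed the filter on low counts, which kept 17079 genes.

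RNA sequencing was done on whole mouse thyroids in 3 genotype groups of 3 libraries each: Arid2 KO, Smarcb1 KO and wild type. The name under which the counts were deposited calls these samples non-Braf and says no more. The labels give tissue and genotype only. They name no age, sex, strain, further allele or agent, nor the promoter or cell type in which a deletion was made, and leave unstated whether separate animals gave the 3 libraries of a group. All p-values therefore speak of the spread among these libraries alone. The products of Arid2 and Smarcb1 belong to SWI/SNF chromatin remodelling complexes, and the question is how these transcripts differ between the groups that carry these labels.

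Cells commit to mitosis when cyclin B with the kinase Cdk1 becomes active; the spindle checkpoint then holds chromosome separation back until kinetochores are attached, and the anaphase-promoting complex ends the process by marking cyclin B for destruction. Most transcripts of this set are made only in cycling cells and peak in G2 and M. Their promoters are repressed in resting cells by the DREAM complex and activated in G2 by B-Myb with MuvB and by Foxm1, through an element called the CHR that often lies near CCAAT boxes, which bind NF-Y. In the adult thyroid few follicular cells divide, so such transcripts in whole tissue come from a minority of cells of any type.

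The promoter windows below are shown because they hold the letters by which this gene set is known to be regulated. Each spans 250 bases before to 50 bases after a RefSeq transcription start on GRCm38.p6, a build other than the mm9 named in the submitters' processing notes, and was read from the strand of the gene. Capitals mark matches to the CHR letters TTTGAA or TTCGAA and to CCAAT, on either strand (TTCGAA reads the same on both). The first 4 windows belong to genes that were lower in Smarcb1-labelled than in Arid2-labelled thyroid at an edgeR adjusted p under 0.05. The next 3 belong to the widely used proliferation markers Mki67 and Top2a and to the mitotic kinase gene Cdk1, none of which passed. The last belongs to Bub3, the member that stood apart from the others.
Ccnb2 (chr9:70421505-70421804, minus strand): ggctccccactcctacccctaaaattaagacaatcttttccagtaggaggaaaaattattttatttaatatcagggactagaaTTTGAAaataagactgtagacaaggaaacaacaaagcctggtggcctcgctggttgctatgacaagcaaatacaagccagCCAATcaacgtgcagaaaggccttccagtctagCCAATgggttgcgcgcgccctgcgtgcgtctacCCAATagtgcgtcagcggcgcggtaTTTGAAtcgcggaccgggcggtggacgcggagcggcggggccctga
Cdc20 (chr4:118437294-118437593, minus strand): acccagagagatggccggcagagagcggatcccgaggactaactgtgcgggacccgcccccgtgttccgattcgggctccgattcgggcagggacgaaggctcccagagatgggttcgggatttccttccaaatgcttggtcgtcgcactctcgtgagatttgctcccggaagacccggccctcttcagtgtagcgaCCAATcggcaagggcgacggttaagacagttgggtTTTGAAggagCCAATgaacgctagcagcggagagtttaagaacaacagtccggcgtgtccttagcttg
Plk1 (chr7:122159185-122159484, plus strand): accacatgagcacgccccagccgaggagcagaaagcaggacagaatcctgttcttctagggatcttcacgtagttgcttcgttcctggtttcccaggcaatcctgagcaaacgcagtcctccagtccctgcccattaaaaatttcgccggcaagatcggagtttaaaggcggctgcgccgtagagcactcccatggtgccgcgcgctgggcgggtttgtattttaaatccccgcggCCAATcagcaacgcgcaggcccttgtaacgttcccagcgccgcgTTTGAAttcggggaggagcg
Ube2c (chr2:164769679-164769978, plus strand): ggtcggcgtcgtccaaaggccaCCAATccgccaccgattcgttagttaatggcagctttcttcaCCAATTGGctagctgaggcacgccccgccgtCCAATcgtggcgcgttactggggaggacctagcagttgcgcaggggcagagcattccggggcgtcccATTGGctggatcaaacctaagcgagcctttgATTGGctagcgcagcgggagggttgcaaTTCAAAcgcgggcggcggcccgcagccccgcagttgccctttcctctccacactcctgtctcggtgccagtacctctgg
Mki67 (chr7:135716330-135716629, minus strand): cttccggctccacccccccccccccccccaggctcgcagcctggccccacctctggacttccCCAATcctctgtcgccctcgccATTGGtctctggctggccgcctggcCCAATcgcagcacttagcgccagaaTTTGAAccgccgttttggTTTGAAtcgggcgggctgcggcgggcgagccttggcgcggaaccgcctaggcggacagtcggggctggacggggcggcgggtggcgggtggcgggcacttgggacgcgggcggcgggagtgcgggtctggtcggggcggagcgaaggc
Top2a (chr11:99024140-99024439, minus strand): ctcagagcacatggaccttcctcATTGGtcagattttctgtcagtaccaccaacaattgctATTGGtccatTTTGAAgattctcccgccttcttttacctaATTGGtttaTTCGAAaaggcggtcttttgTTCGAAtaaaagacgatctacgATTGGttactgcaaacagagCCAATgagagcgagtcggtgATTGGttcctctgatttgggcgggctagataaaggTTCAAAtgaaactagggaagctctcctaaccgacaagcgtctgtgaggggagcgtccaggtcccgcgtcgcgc
Cdk1 (chr10:69352863-69353162, minus strand): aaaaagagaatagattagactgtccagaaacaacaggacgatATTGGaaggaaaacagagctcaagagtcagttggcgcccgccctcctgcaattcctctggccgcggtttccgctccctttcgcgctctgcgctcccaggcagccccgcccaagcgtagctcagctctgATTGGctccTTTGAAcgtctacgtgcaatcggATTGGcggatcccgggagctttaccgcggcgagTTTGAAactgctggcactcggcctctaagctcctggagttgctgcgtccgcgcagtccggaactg
Bub3 (chr7:131560120-131560419, plus strand): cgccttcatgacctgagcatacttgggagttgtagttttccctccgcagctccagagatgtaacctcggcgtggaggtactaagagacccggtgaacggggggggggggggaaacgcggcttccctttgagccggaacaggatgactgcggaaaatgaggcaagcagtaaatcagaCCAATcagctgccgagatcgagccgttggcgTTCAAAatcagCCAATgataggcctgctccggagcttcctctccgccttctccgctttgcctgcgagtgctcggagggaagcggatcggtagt

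RefSeq windows were at hand for 31 of the 38 genes, as 34 windows, because Bub3, Ect2 and Prc1 each had 2 overlapping windows. Matches in the part that such windows share were counted in both. Those of Aurkb, Ccna2, Cdc25c, Foxm1, Incenp, Kif20a and Tpx2 had no entry. A CHR match stood in 79.4% of the 34 windows, against 19.2% of all 32851 RefSeq windows of the same length. CCAAT stood in 79.4% of the windows of the mitotic genes and in 37.4% of all windows, and both motifs stood together in 70.6% of the windows of the mitotic genes and in 7.52% of all windows. At least 2 CCAAT matches stood in 58.8% of the windows of the mitotic genes and in 11.7% of all windows. E2F letters (TTCGCGC or TTGGCGC, and also TTCCCGC or TTGGCGG, either strand) stood in 20.6% of the windows of the mitotic genes and in 10.2% of all windows; those that begin with TTGG can share letters with CCAAT read on the other strand. The CHR matches started at a median of 15 bases before the transcription start, and 27 of the 37 lay between 100 bases before and 50 bases after it. The CCAAT matches lay further out, at a median of 71 bases before it. No match to any of these letters stood in the windows of Birc5, Mad2l1, Nuf2 and Nusap1. Bub3, which did not follow the other members in the RNA data, held a CHR match and 2 CCAAT matches like they did. These are matches of letters, not measured binding.

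**Figure D1:**
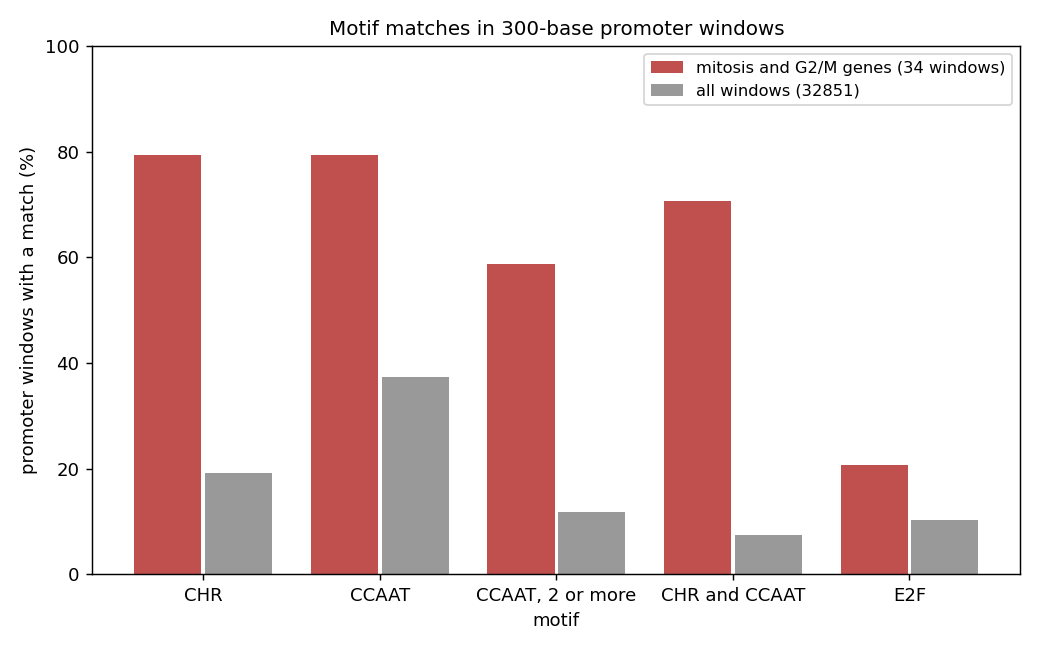
Share of 300-base promoter windows (%) that hold each motif, for the 34 windows of mitosis and G2/M genes (red, left bar of each pair) and all 32851 RefSeq windows (grey). CHR and CCAAT together stood in 70.6% of the windows of these genes and in 7.52% of all windows.

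Total counts were 61179297 to 89553766 in the Arid2-labelled libraries, 38644867 to 41362640 in the Smarcb1-labelled libraries and 33666251 to 34045321 in wild type. Summed levels of 9 thyroid follicular genes were 228991 to 325014 CPM in all 9 libraries; CPM here are counts scaled to library size with TMM factors. Neither targeted gene passed the test against wild type. Arid2 was 59.9 to 94.6 CPM in the Arid2-labelled group and 67.8 to 75.0 CPM in wild type (log2 fold change 0.13, SE 0.16, edgeR adjusted p = 0.745). Smarcb1 was 47.5 to 59.4 CPM in the Smarcb1-labelled group and 65.9 to 71.7 CPM in wild type (-0.36, SE 0.11, adjusted p = 0.0651). The groups are therefore named as labelled. Thymocyte markers set 2 libraries apart: Rag1, a recombinase gene of developing lymphocytes, reached 502.0 CPM in 1 Arid2-labelled library (replicate 1) and 52.6 CPM in 1 Smarcb1-labelled library (replicate 2), with at most 0.145 CPM elsewhere. The sum of 14 such markers was 1714 and 309.5 CPM in these libraries and 9.42 to 19.9 CPM in the other 7, where Rag1 was at 0 counts in 5. All 14 exceeded 1 CPM in Arid2-labelled replicate 1 and 13 did in Smarcb1-labelled replicate 2, against 2 to 4 in the others. Since thymocytes divide, the 3 comparisons of the mitotic genes are also given without these 2 libraries.

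Across the libraries most of the mitotic genes moved together. Their summed level was 743 CPM in Arid2-labelled replicate 1, 309 in replicate 2 and 414 in replicate 3. It was 253, 306 and 193 CPM in Smarcb1-labelled replicates 1, 2 and 3 and 194.2, 190.4 and 262.6 CPM in wild-type replicates 1, 2 and 3. The Arid2-labelled libraries were thus the 3 highest, replicate 1 by far and replicate 2 barely above Smarcb1-labelled replicate 2, and the Smarcb1-labelled and wild-type ranges overlapped. In whole tissue, fewer cells of a type and less RNA per cell cannot be told apart.

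Arid2-labelled replicate 1 was the highest of the 9 libraries for 37 of the 38 genes, all but Bub3, which was highest in wild-type replicate 2. Its level over the mean of the other 2 Arid2-labelled libraries had a median of 1.98 over the members. The ratio was largest for the spindle motor gene Kif11 (3.68) and for Top2a (3.40), and smallest for Bub3 (1.08) and Anln (1.32). For Smarcb1-labelled replicate 2, the same ratio to the other 2 Smarcb1-labelled libraries had a median of 1.44, from 0.873 for Cenpf to 2.43 for Cdca8. The part of thymocytes in these levels was not tested. With both libraries left out, 35 of the 38 genes were highest in Arid2-labelled replicate 3. Libraries without thymocyte markers also differed within a group: wild-type replicate 3 was the highest wild-type library for 35 genes, and the highest wild-type library exceeded the lowest by a median of 1.65-fold, up to 2.52-fold for Cdc25c.

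**Figure D2:**
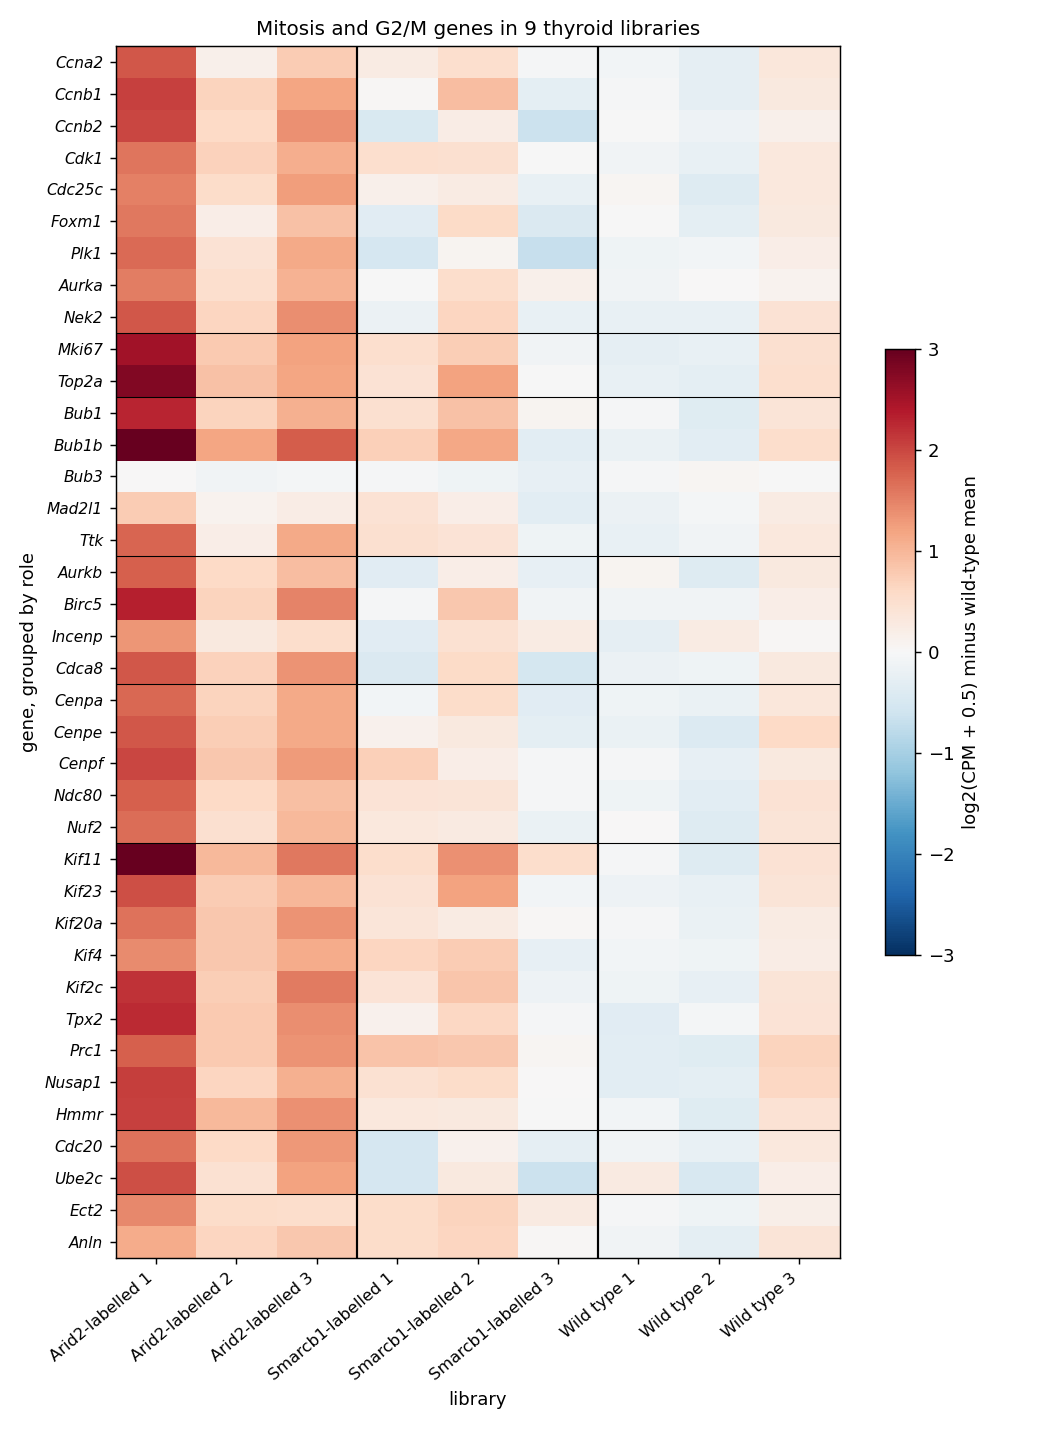
Level of each of the 38 genes (rows, by role) in each of the 9 libraries (columns), as log2(CPM + 0.5) minus the wild-type mean of that value, with the colour scale ending at 3 in either direction. The Arid2-labelled columns are the reddest, replicate 1 above all, and the row of Bub3 stays near 0 throughout.

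**Figure D3:**
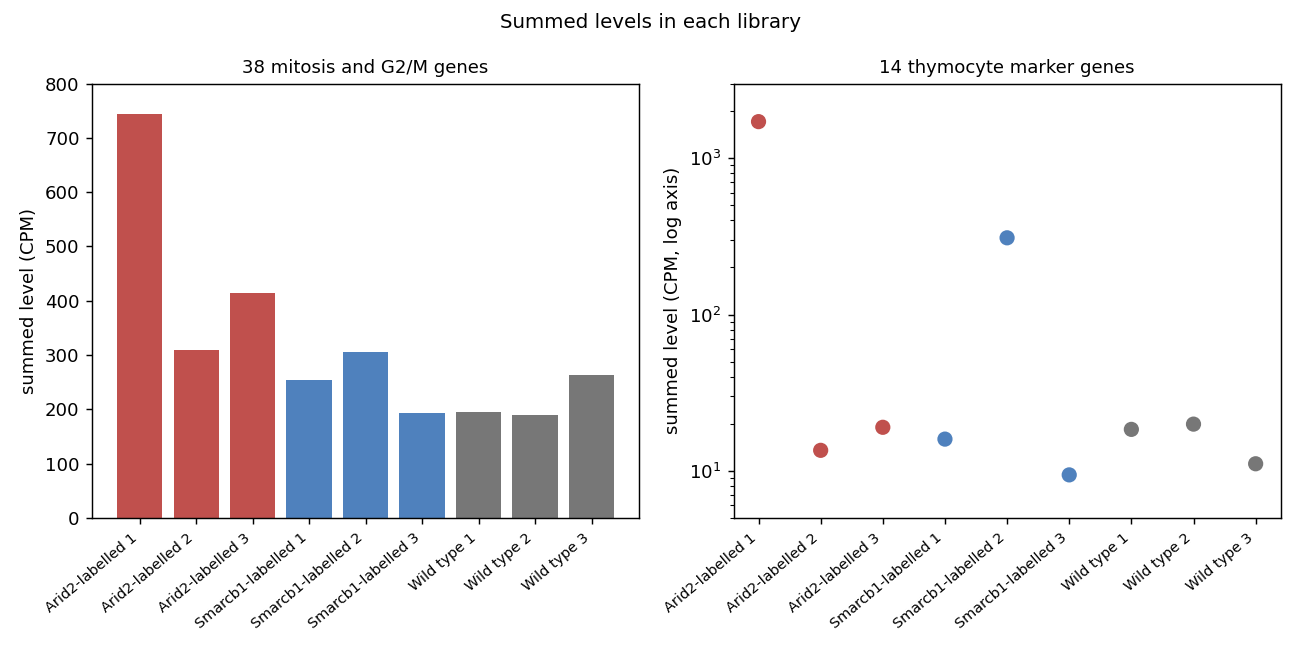
Summed levels (CPM, TMM-scaled) in each of the 9 libraries, of the 38 mitosis and G2/M genes (bars, left) and of 14 thymocyte markers (points, right, log axis), coloured by group. The mitotic genes summed to 309 to 743 CPM in Arid2-labelled, 193 to 306 in Smarcb1-labelled and 190.4 to 262.6 in wild-type thyroid, and the thymocyte markers stood out in Arid2-labelled replicate 1 (1714 CPM) and Smarcb1-labelled replicate 2 (309.5 CPM).

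When Arid2-labelled thyroid was set against wild type, 37 of the 38 genes had a positive log2 fold change (52.5% of all genes tested), and the median was 1.40 (0.02 over all genes tested). None passed an adjusted p under 0.05 by edgeR, where 0.234% of all genes were called higher and 0.322% lower. At an unadjusted p under 0.05, 36 were higher (7.86% of all genes), and for 33 all Arid2-labelled libraries lay above all wild-type libraries (12.9% of all genes). DESeq2, run as the other tool, called 32 of the 38 higher (2.39% of all genes), so whether these genes are called turned on the tool. The groups overlapped for Bub3, Mad2l1, Ccna2, Foxm1 and Ttk.

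Without the 2 libraries with thymocyte markers, 37 fold changes were again positive (45.6% of all genes) and the median was 0.97 (-0.03 over all genes tested). By edgeR 0 were called (0.157% of all genes were called higher and 0.169% lower), 32 were higher at an unadjusted p under 0.05 (5.6%), and DESeq2 called 15 (1.81%). In 33 genes the 2 remaining Arid2-labelled libraries lay above all 3 wild-type libraries (17.2%), and Bub3 lay below them. Over the members, the mean of these 2 libraries was 0.942 (Bub3) to 3.14 (Bub1b) times the wild-type mean, with a median of 2.01.

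Mki67, the gene of the Ki-67 protein that coats mitotic chromosomes, stood at 97.6, 29.2 and 39.2 CPM in Arid2-labelled replicates 1, 2 and 3, 23.9, 28.4 and 15.5 CPM in Smarcb1-labelled libraries and 13.9, 14.2 and 23.6 CPM in wild type. Top2a, the topoisomerase that untangles sister chromatids, stood at 88.7, 23.2 and 29.0 CPM in Arid2-labelled, 17.1, 29.5 and 12.4 CPM in Smarcb1-labelled and 10.6, 10.1 and 17.9 CPM in wild-type libraries. For both genes all Arid2-labelled libraries exceeded wild type, and the Smarcb1-labelled libraries overlapped it. Against wild type the Arid2-labelled log2 fold changes were 1.68 for Mki67 (SE 0.45, edgeR adjusted p = 0.128) and 1.86 for Top2a (SE 0.53, adjusted p = 0.149). Without the 2 libraries with thymocyte markers they were 0.95 and 0.98.

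The 9 cyclins, kinases and activators of mitotic entry had a median log2 fold change of 1.36 in Arid2-labelled over wild-type thyroid. Ccnb1, cyclin B1, stood at 10.04, 3.49 and 5.22 CPM in Arid2-labelled, 2.09, 4.32 and 1.57 CPM in Smarcb1-labelled and 1.97, 1.59 and 2.61 CPM in wild-type libraries. Ccnb2, cyclin B2, stood at 13.0, 4.59 and 8.18 CPM in Arid2-labelled, 1.93, 3.39 and 1.62 CPM in Smarcb1-labelled and 2.82, 2.504 and 3.23 CPM in wild-type libraries. The Arid2-labelled libraries were above wild type for both B cyclins, with log2 fold changes of 1.60 (SE 0.48, adjusted p = 0.164) and 1.59 (SE 0.40, adjusted p = 0.116). Leaving out the 2 libraries with thymocyte markers gave 1.05 and 1.12, and the median of the 9 genes was 0.93. Ccna2, the cyclin of S phase and early mitosis, was 20.2, 5.82 and 9.11 CPM in Arid2-labelled, 6.21, 7.49 and 5.03 CPM in Smarcb1-labelled and 4.85, 4.21 and 6.67 CPM in wild-type libraries. Unlike the B cyclins it overlapped between Arid2-labelled and wild-type libraries (1.16, SE 0.42, adjusted p = 0.241; 0.47 without the 2 libraries).

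Cdk1, the kinase these cyclins activate, was 15.5, 7.95 and 10.6 CPM in Arid2-labelled, 6.95, 6.81 and 4.74 CPM in Smarcb1-labelled and 4.398, 4.04 and 6.08 CPM in wild-type libraries. Foxm1, a transcription factor that turns on G2/M genes, was 12.7, 4.54 and 7.57 CPM in Arid2-labelled, 3.002, 6.04 and 2.79 CPM in Smarcb1-labelled and 3.88, 3.13 and 4.92 CPM in wild-type libraries. The Arid2-labelled log2 fold change was 1.23 for Cdk1 (SE 0.29, adjusted p = 0.0978) with no overlap, and 1.06 for Foxm1 (SE 0.42, adjusted p = 0.287) with overlap. Plk1, a kinase of spindle assembly and mitotic exit, was 8.11, 3.08 and 5.32 CPM in Arid2-labelled, 1.37, 2.31 and 1.14 CPM in Smarcb1-labelled and 1.91, 1.99 and 2.55 CPM in wild-type libraries. Aurka, a kinase of centrosome maturation, was 8.74, 4.07 and 6.09 CPM in Arid2-labelled, 2.67, 4.10 and 3.03 CPM in Smarcb1-labelled and 2.46, 2.70 and 2.97 CPM in wild-type libraries. Both were higher in all Arid2-labelled than in all wild-type libraries, by 1.36 (SE 0.39, adjusted p = 0.149) and 1.22 (SE 0.30, adjusted p = 0.109) on the log2 scale. Cdc25c, the phosphatase that activates Cdk1, and Nek2, a kinase of centrosome separation, had log2 fold changes of 1.67 and 1.56. With the 2 libraries left out, the values were 0.91 for Cdk1, 0.57 for Foxm1, 0.93 for Plk1, 0.87 for Aurka, 1.36 for Cdc25c and 1.17 for Nek2. Cdc25c was the scarcest member, with 0.342 to 0.860 CPM in wild type.

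The spindle checkpoint held both ends of the range. Bub1b, the gene of the checkpoint protein BubR1, was 24.6, 6.57 and 10.4 CPM in Arid2-labelled, 4.605, 6.40 and 2.003 CPM in Smarcb1-labelled and 2.18, 1.99 and 3.95 CPM in wild-type libraries. Its log2 fold change in Arid2-labelled over wild-type thyroid was 2.35 (SE 0.57, adjusted p = 0.109), the highest of the 38, and 1.61 without the 2 libraries with thymocyte markers. Bub3, which brings Bub1 and BubR1 to kinetochores, was 55.1, 50.4 and 51.9 CPM in Arid2-labelled, 53.3, 49.3 and 45.7 CPM in Smarcb1-labelled and 53.1, 56.3 and 53.5 CPM in wild-type libraries. It was nearly level across all 9 libraries, and its Arid2-labelled value over wild type was -0.05 (SE 0.09, adjusted p = 0.839). Mad2l1, the gene of the checkpoint effector Mad2, was 15.8, 9.81 and 10.8 CPM in Arid2-labelled, 12.6, 10.5 and 7.28 CPM in Smarcb1-labelled and 8.10, 8.71 and 10.9 CPM in wild-type libraries. These groups overlapped (0.39, SE 0.25, adjusted p = 0.509). The checkpoint kinase genes Bub1 and Ttk had log2 fold changes of 1.82 and 1.52, and those of Ttk overlapped. With the 2 libraries left out, Bub1 stood at 1.05, Ttk at 0.98, Mad2l1 at 0.13 and Bub3 at -0.12.

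The chromosomal passenger complex corrects faulty kinetochore attachments. Aurkb, its kinase, was 7.51, 3.005 and 3.87 CPM in Arid2-labelled, 1.32, 2.15 and 1.46 CPM in Smarcb1-labelled and 1.94, 1.28 and 2.34 CPM in wild-type libraries. Birc5, its survivin subunit, was 14.2, 4.08 and 7.63 CPM in Arid2-labelled, 2.32, 4.62 and 2.19 CPM in Smarcb1-labelled and 2.21, 2.19 and 2.85 CPM in wild-type libraries. Cdca8, its borealin subunit, was 9.37, 3.90 and 6.39 CPM in Arid2-labelled, 1.501, 3.51 and 1.38 CPM in Smarcb1-labelled and 1.91, 1.99 and 2.82 CPM in wild-type libraries. The 3 genes lay above wild type in all Arid2-labelled libraries, with log2 fold changes of 1.37 (SE 0.39), 1.84 (SE 0.46) and 1.55 (SE 0.43) and edgeR adjusted p-values of 0.149, 0.115 and 0.145. They were 0.86 for Aurkb, 1.24 for Birc5 and 1.16 for Cdca8 with the 2 libraries left out. Incenp, the scaffold of the complex, was 22.9, 10.9 and 12.9 CPM in Arid2-labelled, 6.79, 12.2 and 10.4 CPM in Smarcb1-labelled and 7.22, 10.4 and 8.99 CPM in wild-type libraries. Its fold change was the third smallest of the set (0.81, SE 0.31, adjusted p = 0.275), and only 0.39 without the 2 libraries with thymocyte markers.

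Among the 5 centromere and kinetochore genes the median log2 fold change of Arid2-labelled over wild type was 1.33. Cenpa, the histone variant that marks centromeres, was 11.8, 5.48 and 7.69 CPM in Arid2-labelled, 3.03, 4.96 and 2.46 CPM in Smarcb1-labelled and 2.91, 2.76 and 4.24 CPM in wild-type libraries. Cenpe, a kinetochore motor, was 22.1, 9.95 and 13.2 CPM in Arid2-labelled, 6.28, 7.17 and 4.63 CPM in Smarcb1-labelled and 4.97, 4.21 and 8.90 CPM in wild-type libraries. Cenpf, a large outer kinetochore protein, was 23.5, 9.94 and 13.97 CPM in Arid2-labelled, 9.26, 6.36 and 5.30 CPM in Smarcb1-labelled and 5.31, 4.55 and 6.76 CPM in wild-type libraries. Arid2-labelled and wild-type libraries did not overlap for any of the 3, and Cenpf had the third smallest p of the set (1.51, SE 0.34, adjusted p = 0.0918). Ndc80 and Nuf2, partners in the complex that grips microtubules, had fold changes of 1.37 and 1.27. Leaving out the 2 libraries gave 0.96 for Cenpa, 0.91 for Cenpe and 1.07 for Cenpf, and a median of 0.91 over the 5.

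The 9 kinesins and spindle proteins had a median log2 fold change of 1.41. Kif20a, a kinesin of the midzone and cytokinesis, was 12.4, 6.84 and 10.2 CPM in Arid2-labelled, 4.86, 4.46 and 3.79 CPM in Smarcb1-labelled and 3.58, 3.13 and 4.48 CPM in wild-type libraries. The value for Arid2-labelled over wild type, 1.40 (SE 0.25), came with the smallest adjusted p of the set, 0.0527 by edgeR, and its Arid2-labelled replicate 1 exceeded the mean of the other 2 by 1.45-fold, the fourth smallest such ratio of the 38. Without the 2 libraries with thymocyte markers it was 1.16 (SE 0.25, adjusted p = 0.117). Kif11, the motor that separates spindle poles, was 35.3, 7.43 and 11.8 CPM in Arid2-labelled, 5.34, 9.98 and 5.33 CPM in Smarcb1-labelled and 3.49, 2.59 and 4.95 CPM in wild-type libraries. For Kif11 both labelled groups lay wholly above wild type, Arid2-labelled by 2.31 on the log2 scale (SE 0.57, adjusted p = 0.110). Hmmr, a spindle assembly protein, was 12.7, 5.66 and 7.61 CPM in Arid2-labelled, 3.41, 3.37 and 2.63 CPM in Smarcb1-labelled and 2.49, 1.96 and 3.77 CPM in wild-type libraries (Arid2-labelled over wild type 1.66, SE 0.34, adjusted p = 0.0741). Kif4, a chromosome-bound kinesin, was 13.0, 8.37 and 10.4 CPM in Arid2-labelled, 7.38, 8.01 and 3.76 CPM in Smarcb1-labelled and 4.28, 4.07 and 5.34 CPM in wild-type libraries (1.22, SE 0.30, adjusted p = 0.109). The other 5 of the group, Kif23, Kif2c, Tpx2, Prc1 and Nusap1, had log2 fold changes between 1.34 and 1.90 with no overlap. Leaving out the 2 libraries gave 1.35 for Kif11, 1.24 for Hmmr and 1.01 for Kif4, and a median of 1.12 over the 9.

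Mitotic exit and cytokinesis completed the set. Cdc20, the activator of the anaphase-promoting complex, was 12.6, 5.85 and 9.91 CPM in Arid2-labelled, 2.47, 4.10 and 2.98 CPM in Smarcb1-labelled and 3.40, 3.13 and 4.78 CPM in wild-type libraries. Ube2c, the ubiquitin-conjugating enzyme that works with that complex, was 11.5, 3.83 and 6.89 CPM in Arid2-labelled, 1.76, 3.42 and 1.54 CPM in Smarcb1-labelled and 3.31, 1.79 and 3.17 CPM in wild-type libraries. Over wild type the Arid2-labelled log2 fold changes were 1.33 (SE 0.32, adjusted p = 0.109) and 1.43 (SE 0.46, adjusted p = 0.189), again with no overlap. Ect2, which activates RhoA at the cell equator, was 14.4, 7.54 and 7.52 CPM in Arid2-labelled, 7.63, 8.31 and 6.14 CPM in Smarcb1-labelled and 4.85, 4.55 and 5.73 CPM in wild-type libraries. Anln, the contractile ring scaffold anillin, was 16.8, 11.9 and 13.6 CPM in Arid2-labelled, 11.2, 12.1 and 7.63 CPM in Smarcb1-labelled and 6.98, 6.005 and 9.97 CPM in wild-type libraries. Both cytokinesis genes had fold changes below the median of the set (0.96 and 0.88), and Arid2-labelled replicate 1 exceeded the mean of the other 2 by 1.32-fold for Anln. With the 2 libraries left out, Cdc20 stood at 1.03, Ube2c at 0.93, Ect2 at 0.54 and Anln at 0.70.

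Counts of 10 members are uncertain, because their exons overlap those of another protein-coding gene in the GRCm38 annotation and no source states whether the counting used strand. These are Ccna2, Foxm1, Cdc20, Ube2c, Kif20a, Kif4, Prc1, Nusap1, Cdca8 and Cdc25c. Ube2c overlaps Tnnc2, a muscle troponin gene. Summed levels of 5 skeletal muscle markers were 829, 310.2 and 1369.7 CPM in Arid2-labelled, 202, 783 and 64.4 CPM in Smarcb1-labelled and 797, 13.5 and 333 CPM in wild-type replicates 1, 2 and 3. The part of Tnnc2 reads in the Ube2c counts was not tested.

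In Smarcb1-labelled against wild-type thyroid, which shares the wild-type libraries with the comparison above, the mitotic genes were near the wild-type level. The median log2 fold change was 0.26 (0.05 over all genes tested), with 30 positive values (54.6% of all genes) and 8 negative ones. By edgeR 0 members were called, against 2.15% of all genes called higher and 5.74% called lower. At an unadjusted p under 0.05 there were also 0 (13.8% and 14.6% of all genes), and DESeq2 called 0 (5.89% and 10.3%). Only Kif11 and Ect2 had all Smarcb1-labelled libraries above wild type (17.1% of all genes), by 0.91 (SE 0.55, adjusted p = 0.304) and 0.55 (SE 0.27, adjusted p = 0.223) on the log2 scale. No member had all of them below it (16.7% of all genes). The p of Ect2 was the smallest of the set. Anln (0.43, SE 0.25, adjusted p = 0.281) and Kif4 (0.49, SE 0.30, adjusted p = 0.304) came next in p. Closest to 0 were Cenpe (0.001), Foxm1 (-0.01) and Cdca8 (-0.07). The lowest value was that of Plk1, at -0.42 (SE 0.39, adjusted p = 0.503).

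Leaving out the 2 libraries with thymocyte markers lowered the values, to a median of 0.06, with 22 positive (49.3% of all genes) and 16 negative. Kif11 and Ect2 stayed above wild type in both remaining Smarcb1-labelled libraries (27.3% of all genes), while Ccnb2, Foxm1, Plk1, Cdca8, Cdc20 and Ube2c lay below it in both (23.8%). At an unadjusted p under 0.05 the 2 members Plk1 (-0.82, SE 0.31, adjusted p = 0.115) and Ccnb2 (-0.72, SE 0.30, adjusted p = 0.132) were lower (18.8% of all genes). Again 0 were called by edgeR (3.51% of all genes higher, 9.09% lower) and 0 by DESeq2 (9.4% higher, 12.8% lower).

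**Figure D4:**
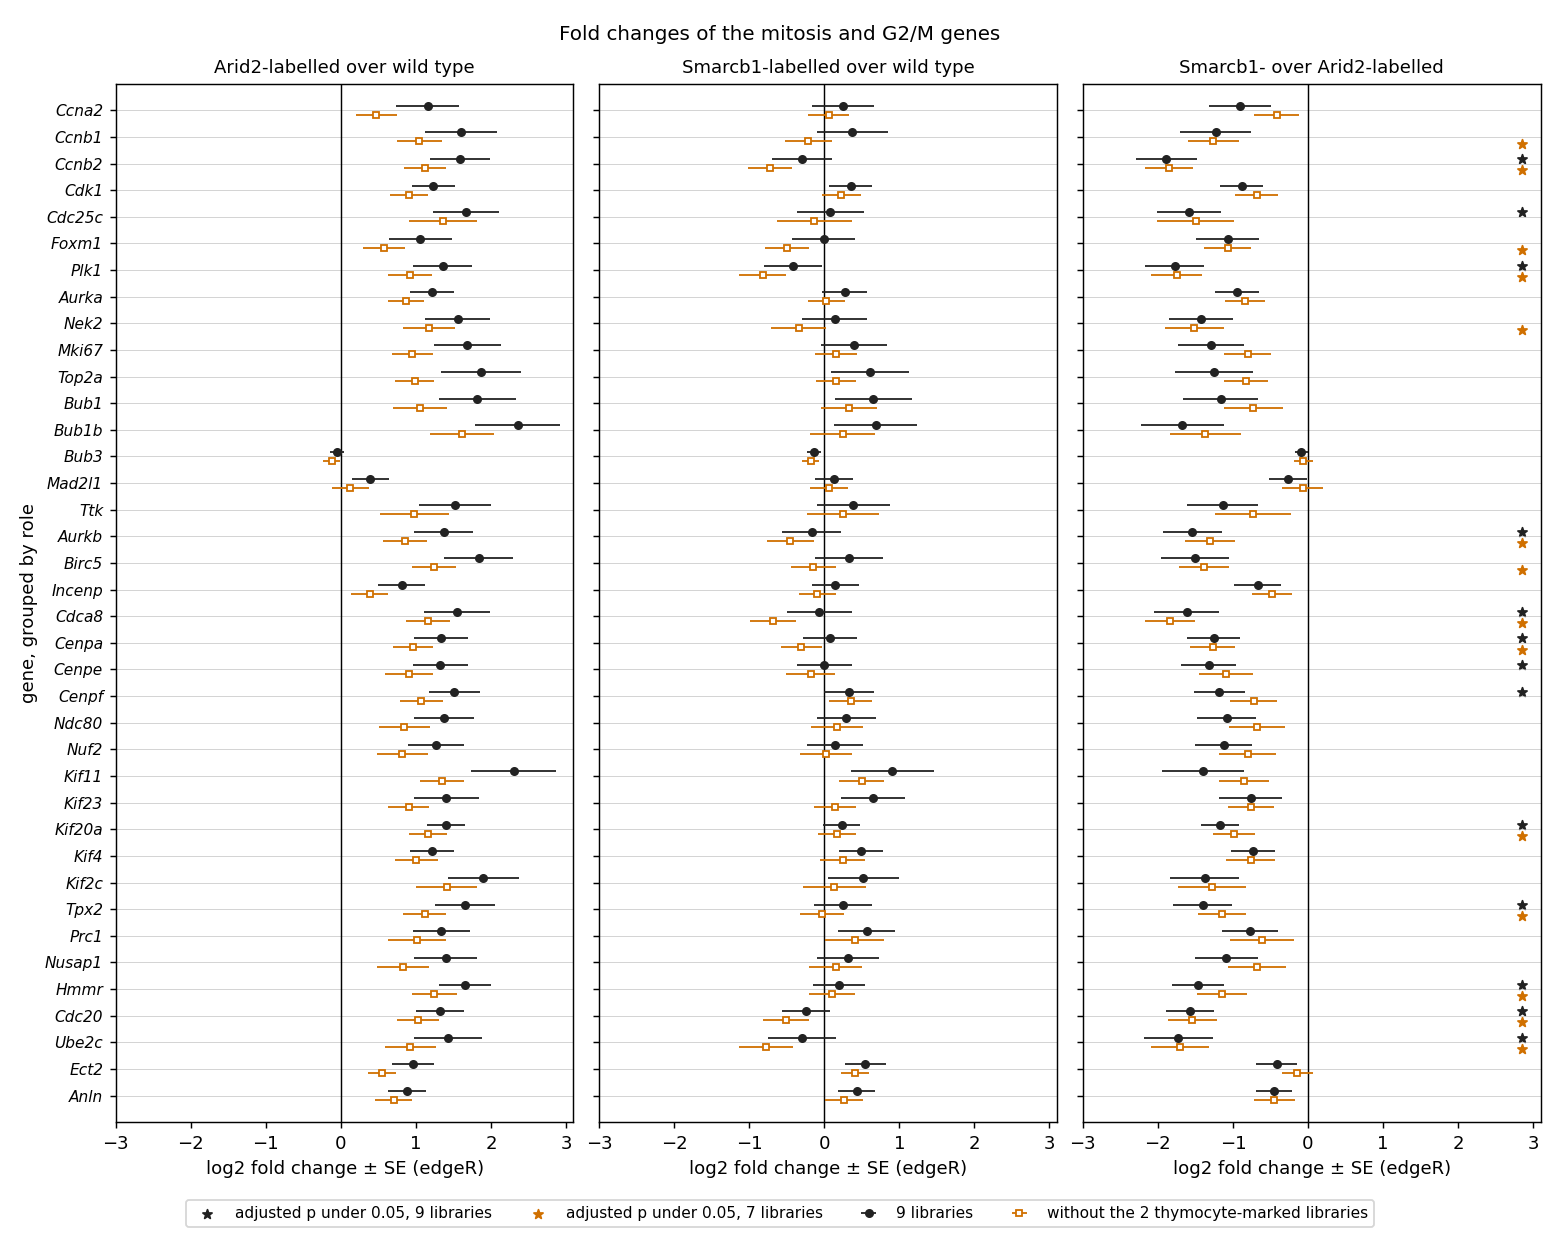
Log2 fold change of each of the 38 genes with its standard error, from edgeR, for the comparisons of labelled with wild-type thyroid and of Smarcb1-labelled with Arid2-labelled thyroid, with all 9 libraries and without the 2 with thymocyte markers; stars mark an adjusted p under 0.05. Against wild type, Arid2-labelled values run from -0.05 (Bub3) to 2.35 (Bub1b) and Smarcb1-labelled values from -0.42 (Plk1) to 0.91 (Kif11).

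Set directly against each other, Smarcb1-labelled thyroid had lower levels than Arid2-labelled thyroid for all 38 genes, with a median log2 fold change of -1.20 (0.003 over all genes tested, 50.3% of which were positive). By edgeR 13 of the 38 fell at an adjusted p under 0.05, where 9.32% of all genes were called lower. At an unadjusted p under 0.05, 30 were lower (18.1%), and for 21 the groups did not overlap (20.5%). DESeq2 called 26 lower (13.4%), including these 13. The calls depended on single libraries. The 13 became 0 without Arid2-labelled replicate 3 or Smarcb1-labelled replicate 3, 1 without Smarcb1-labelled replicate 1 and 3 without Arid2-labelled replicate 1. They became 5 without wild-type replicate 1, which enters only through the shared fit, and 19 without Smarcb1-labelled replicate 2. Shares of all genes called in these fits are not given here, so whether such changes are particular to these genes cannot be read. The median was -0.67 without Arid2-labelled replicate 1.

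The 3 lowest values belonged to Ccnb2, Plk1 and Ube2c, followed by Bub1b, which was not called. Ccnb2 fell by 1.89 on the log2 scale (SE 0.40, edgeR adjusted p = 0.0198), Plk1 by 1.77 (SE 0.39, adjusted p = 0.0219) and Cdc25c by 1.59 (SE 0.43, adjusted p = 0.0384). Cdc20 fell by 1.57 (SE 0.32, adjusted p = 0.0177), the smallest p of the set, and Ube2c by 1.73 (SE 0.46, adjusted p = 0.0372). In the chromosomal passenger complex, Cdca8 fell by 1.62 (SE 0.43, adjusted p = 0.0375) and Aurkb by 1.54 (SE 0.39, adjusted p = 0.0320). Its other subunits Birc5 (-1.50, adjusted p = 0.0519) and Incenp (-0.67, adjusted p = 0.160) were not called. Of the kinetochore genes, Cenpa (-1.26), Cenpe (-1.32) and Cenpf (-1.18) fell with adjusted p-values of 0.0439, 0.0406 and 0.0440, while Ndc80 (-1.08) and Nuf2 (-1.12) did not pass. Among the spindle genes, Kif20a fell by 1.17 (SE 0.25, adjusted p = 0.0198), Hmmr by 1.46 (SE 0.34, adjusted p = 0.0254) and Tpx2, an activator of Aurora A, by 1.40 (SE 0.39, adjusted p = 0.0419). The counts of 5 of the 13, Cdc20, Ube2c, Cdca8, Cdc25c and Kif20a, are among those that overlapping genes make uncertain.

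Mki67 (-1.29, adjusted p = 0.0726), Cdk1 (-0.88, adjusted p = 0.0615) and Aurka (-0.95, adjusted p = 0.0562) were not called. None of the 5 checkpoint genes passed, although Bub1b stood at -1.67 (SE 0.56, adjusted p = 0.0678). The smallest differences were those of Bub3 (-0.09, SE 0.09, adjusted p = 0.519), Mad2l1 (-0.26, SE 0.25, adjusted p = 0.478) and Ect2 (-0.42, SE 0.27, adjusted p = 0.298).

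Without the 2 libraries with thymocyte markers, all 38 values stayed negative (median -0.85; 49.6% of all genes were positive) and 14 were called (11.6% of all genes called lower). Of these, 10 were shared with the 13; Birc5, Ccnb1, Foxm1 and Nek2 were added, and Cdc25c, Cenpe and Cenpf were lost. Ccnb2 (-1.85, SE 0.32, edgeR adjusted p = 0.0141) and Plk1 (-1.75, SE 0.34, adjusted p = 0.0175) were nearly the same with and without these libraries. Cdca8 was lower without them (-1.84, SE 0.33, adjusted p = 0.0152) than with them (-1.62), while Top2a was -0.83 without and -1.25 with them. For 32 genes the 2 Smarcb1-labelled libraries then lay below both Arid2-labelled libraries (33.1% of all genes), 25 were lower at an unadjusted p under 0.05 (19.7%), and DESeq2 called 20 (14.7%).

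Base composition moved with the Smarcb1-labelled comparisons. The GC content of the longest transcript ran from 40.1% for Mad2l1 to 56.0% for Plk1. Over the 38 genes, Spearman's rho between GC content and the log2 fold change was -0.45 for Smarcb1-labelled over wild type, as it was over all 16614 genes with a GC value (-0.56). For Arid2-labelled over wild type it was -0.07 (0.08 over all genes), and for Smarcb1-labelled over Arid2-labelled -0.38 (-0.54 over all genes). These genes share their libraries, so the correlations are descriptions. Plk1 (56.0% GC), Ube2c (55.5%) and Cdc20 (55.6%) had 3 of the 4 lowest values of Smarcb1-labelled over wild type, and Kif11 (42.2%) had the highest. The relation was loose: Bub1b had the second highest value (0.68) at 50.4% GC, and Incenp stood at 0.14 with 54.7% and Mad2l1 at 0.13 with 40.1%.

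With the trend over GC removed within each library, a step chosen after the data were seen, the median was 1.33 for Arid2-labelled over wild type, 0.08 for Smarcb1-labelled over wild type and -1.39 for Smarcb1-labelled over Arid2-labelled. Against wild type 3 members then passed in the Arid2-labelled group, Kif20a, Hmmr and Cenpf (0.421% of all genes called higher), of which 0 passed with the 2 libraries with thymocyte markers also left out. No member passed in the Smarcb1-labelled group (0.451% of all genes higher, 1.88% lower). Between the labelled groups 11 passed (3.14% of all genes called lower), 10 of them among the 13, with Nuf2 added and Aurkb, Cenpa and Ube2c lost. In that combined setting only Ccnb2 and Cdca8 passed between the labelled groups (1.42%), and the median of Smarcb1-labelled over wild type turned to -0.17.

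**Figure D5:**
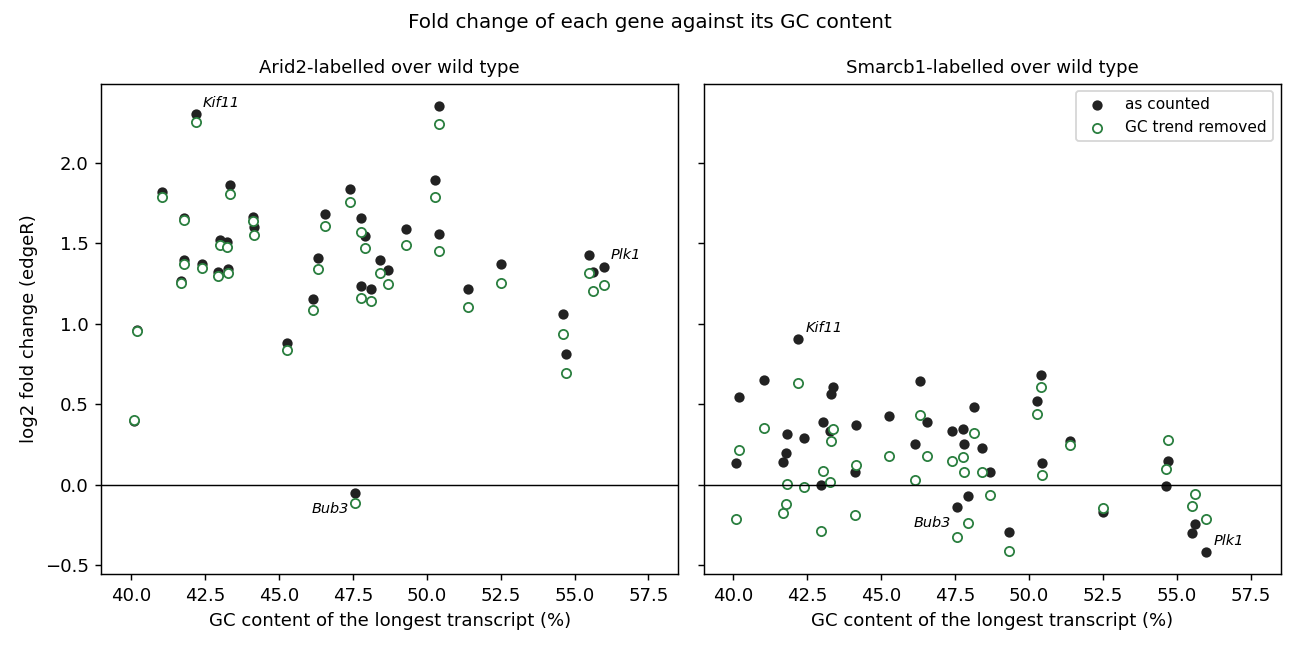
Log2 fold change of each of the 38 genes (edgeR) against the GC content of its longest transcript (%), for Arid2-labelled over wild type (left) and Smarcb1-labelled over wild type (right), as counted (filled) and with the GC trend of each library removed (open). Spearman's rho over the genes was -0.07 on the left and -0.45 on the right as counted.

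Other genes of the cell cycle were read from lists that, like the members, were chosen with earlier results of these data known. In Arid2-labelled over wild-type thyroid, 35 of 36 further mitotic genes were positive (52.5% of all genes), with a median of 1.21; 32 were higher at an unadjusted p under 0.05 (7.86%), 0 were called by edgeR (0.234%) and 16 by DESeq2 (2.39%). With the 2 libraries with thymocyte markers left out, the median was 0.79, with 24 at an unadjusted p under 0.05 (5.6%), 0 called by edgeR (0.157%) and 3 by DESeq2 (1.81%). In Smarcb1-labelled over wild type their median was 0.21, where edgeR called 0 (2.15% of all genes higher, 5.74% lower). At an unadjusted p under 0.05, 1 was higher (13.8%), and DESeq2 called 1 higher (5.89%). Leaving out the 2 libraries gave 0.07, with 2 called higher by DESeq2 (9.4% of all genes). EdgeR then called 1 higher (3.51%), the spindle gene Spag5 (0.997, adjusted p = 0.0427). In Smarcb1-labelled over Arid2-labelled thyroid the median was -1.15 with 8 called lower by edgeR (9.32%), among them Fam64a (-2.03, SE 0.41, adjusted p = 0.0166) and the spindle gene Troap (-1.80, SE 0.35, adjusted p = 0.0153). With the 2 libraries left out it was -0.80 with 9 called (11.6%), Fam64a and Troap included.

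For 30 genes of S phase the median in Arid2-labelled over wild type was 0.55 (1.40 for the members). Of these 30, 0 were called higher by edgeR (0.234% of all genes), 17 were higher at an unadjusted p under 0.05 (7.86%) and 7 were called higher by DESeq2 (2.39%). Leaving out the 2 libraries with thymocyte markers gave 0.35, with 0 (0.157% of all genes), 9 (5.6%) and 3 genes (1.81%) by the same criteria. The Smarcb1-labelled median over wild type was 0.07 (20 positive, 10 negative) with all libraries and -0.09 (12 positive, 18 negative) without the 2. In Smarcb1-labelled over Arid2-labelled thyroid it was -0.59 (-1.20 for the members), with 8 called lower by edgeR (9.32% of all genes) and 0 higher. Without the 2 libraries it was -0.58, with 7 called lower (11.6%) and 1 higher (1757 of all 17200 genes tested).

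Mcm6, which encodes part of the replicative helicase, fell in the Smarcb1-labelled group, to 14.1, 17.3 and 12.2 CPM, against 24.8, 26.3 and 42.3 CPM in wild-type libraries (-1.10, SE 0.23, edgeR adjusted p = 0.0241). It was 52.3, 56.8 and 42.6 CPM in Arid2-labelled libraries. Pola1, a DNA polymerase subunit, rose in Smarcb1-labelled over wild type (0.71, SE 0.18, adjusted p = 0.0466). Both were called without the 2 libraries too (Mcm6 -1.28, edgeR adjusted p = 0.0240, and Pola1 0.77, adjusted p = 0.0237). So was Cdt1, which licenses replication origins (-1.27, adjusted p = 0.0183). Over wild type, edgeR thus called 1 of the 30 higher (2.15% of all genes) and 1 lower (5.74%) in the Smarcb1-labelled group. Without the 2 libraries it called 1 higher (3.51%) and 2 lower (9.09%). With 30 genes, such counts do not set this list apart from all genes.

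A further list held 14 subunits and regulators of the anaphase-promoting complex, other than the member Cdc20. In Arid2-labelled over wild type edgeR called 0 of them (0.234% of all genes higher, 0.322% lower). DESeq2 called 0 (2.39% of all genes higher, 473 of 17079 lower). At an unadjusted edgeR p under 0.05 there were also 0 (7.86% of all genes higher, 1199 of 17079 lower). With 14 genes, such counts do not set this list apart from all genes. In Smarcb1-labelled over wild type Anapc11 fell by edgeR (-0.70, SE 0.13, adjusted p = 0.0176), where 5.74% of all genes were called lower, and DESeq2 called 4 lower (10.3%) and 1 higher (5.89%). When the 2 libraries were left out, edgeR called 2 lower (9.09%), Anapc11 (-0.81, adjusted p = 0.0195) and Fzr1, the gene of the activator Cdh1 (-0.77, adjusted p = 0.0302). The summed level of the 14 was 825 to 839.8 CPM in Arid2-labelled, 775 to 862 CPM in Smarcb1-labelled and 772 to 830.3 CPM in wild-type libraries. Of 16 regulators of the program, among them subunits of NF-Y and MuvB, edgeR called Nfya higher in Smarcb1-labelled than in wild-type thyroid (0.50, SE 0.13, adjusted p = 0.0486), beside 2.15% of all genes, and DESeq2 called 3 higher (5.89%). The Nfya call was lost without the 2 libraries (0.46, adjusted p = 0.0762).

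Levels in wild type were also divided by the merged length of all annotated exons of a gene in the GRCm38 annotation. That length can exceed the length of a single transcript, so the order depends on the annotation. These levels ran from 0.125 CPM per kilobase for Cdc25c to 7.75 for Bub3. The next were Incenp at 2.05, Cdc20 at 2.02 and Ccnb2 at 1.86 CPM per kilobase. Bub3 was thus the highest of the 38 genes by this measure, and also the steadiest in wild type: its highest wild-type library exceeded the lowest by 1.06-fold.

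Markers of other cell types also differed between libraries and their part in these results was not tested. Summed endothelial markers (6 genes) were 549 to 652 CPM in Arid2-labelled, 377 to 579 CPM in Smarcb1-labelled and 311 to 435 CPM in wild-type libraries. Airway markers (5 genes) were 23.5 to 61.1 CPM in Arid2-labelled, 0.785 to 5.21 CPM in Smarcb1-labelled and 1.31 to 1.88 CPM in wild-type libraries. B cell markers (5 genes) were 6.43 to 9.77 CPM in Arid2-labelled, 7.88 to 11.7 CPM in Smarcb1-labelled and 11.7 to 12.8 CPM in wild-type libraries. Parathyroid markers (3 genes) were 10.6 to 1581 CPM in Arid2-labelled, 6092 to 16992 CPM in Smarcb1-labelled and 8.16 to 4320 CPM in wild-type libraries. Fibroblast markers (5 genes) were 957 to 1134 CPM in Arid2-labelled, 1054 to 1519.96 CPM in Smarcb1-labelled and 1368 to 1530.23 CPM in wild-type libraries. Erythroid markers (6 genes) were 251 to 653 CPM in Arid2-labelled, 94.6 to 185 CPM in Smarcb1-labelled and 289.652 to 1396 CPM in wild-type libraries.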

How the data were processed

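The values are raw gene-level read counts of 9 mouse thyroid RNA-seq libraries, which the authors deposited as unnormalized whole numbers. Per the labels' protocols, RNA was extracted with TRIzol from frozen thyroids and libraries were made with an Illumina TruSeq RNA kit. STAR 2.4, HTSeq 0.6.1, DESeq2 and the build mm9 are listed in the submitters' processing notes without role or order. Whether counting used strand is not given in the sources used here, and reads shared with near-identical copies were not examined.

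Groups came from the genotype labels; replicate numbers follow the order of the samples and only name them. Counts were tested with edgeR 4.0.16 in R 4.3.3 (TMM scaling, filterByExpr by group, quasi-likelihood F test, all 9 libraries in 1 fit of 3 group means, 6 residual degrees of freedom), and p-values were adjusted by Benjamini-Hochberg over the 17079 genes tested. A gene was called at an adjusted p under 0.05. DESeq2 1.42.0 was the other tool. Fold changes are log2, and the standard error is the fold over the square root of F. Libraries with Rag1 above 1 CPM are those left out as having thymocyte markers. GC trends were removed with a spline offset for the 97.3% of tested genes with a GC value. Scripts were tested on simulated data with 100 genes changed 2-fold and 100 changed 4-fold. For Arid2-labelled over wild type 44 and 85 of these were recovered, with 8 false calls. The values were 41, 88 and 6 for Smarcb1-labelled over wild type and 38, 80 and 10 for Smarcb1-labelled over Arid2-labelled. Within groups no library was a copy of another: chi-square over degrees of freedom was 47.6 to 122 for pairs.

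The 38 genes, the context and marker lists and the tests were chosen with earlier results of these data known. Values in every library are given for 21 members chosen by name and, per comparison, for the 3 with the smallest p and the 3 with the smallest fold change. Reads lack molecular identifiers, so counts can include PCR copies. Alternatives were other scalings, filters, tools and thinned libraries, a fit of only the libraries compared, and each library left out in turn.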

Additional observations from a re-analysis of the deposited data

How the results depend on the processing

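For Arid2-labelled over wild-type thyroid, the 0 members called by edgeR became 1 with no filter on low counts, 32 with DESeq2, 15 with DESeq2 without the 2 libraries with thymocyte markers and 3 with the GC trend removed, but 0 with that trend removed and the 2 libraries left out. Leaving out each library in turn gave 0 calls throughout and medians from 1.01 to 1.68, the lowest without Arid2-labelled replicate 1. For Smarcb1-labelled over wild type no setting called a member, and the medians without 1 library ran from 0.10 to 0.48. For Smarcb1-labelled over Arid2-labelled thyroid, the 13 calls became 8 with library totals in place of TMM, 5 in a fit of only the 6 libraries compared, 26 with DESeq2, 20 with DESeq2 without the 2 libraries with thymocyte markers and 2 with these left out and the GC trend removed. Without 1 library the calls ran from 0 to 19 and the median from -1.49 to -0.67. The cause of these shifts was not tested. For most of these settings the share of all genes called is not given here, so whether a shift is particular to the members cannot be read. Thinned to the smallest total, 33666251 counts, the medians were 1.43, 0.27 and -1.19 for the 3 comparisons, with 0, 0 and 14 calls, close to the values at full depth. No paired analysis was possible because the labels do not link a library of 1 group to a library of another. The settings that remove the GC trend and the DESeq2 run without the 2 libraries were chosen after the data were seen. With 3 libraries a group, the lowest members, such as Cdc25c with 12 counts in its poorest library, carry the widest counting error.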
